A study of Mus musculus with 11 samples.

Results

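Basophils and mast cells of the mouse lung were chosen by their transcripts: 220 of 69267 filtered cell barcodes, or 0.318%. A barcode was selected on 3 or more unique molecular identifiers (UMIs, each standing for 1 captured RNA molecule) summed over Mcpt8, Ms4a2 and Cpa3, with no UMI of Cd3e (T cells) or Cd79a (B cells). Before that step, barcodes had to hold 1000 to 30000 UMIs and at most 14% mitochondrial UMIs, which 69267 of 81983 did. The values that chose the cells are described and not tested, and so is the contrast of these cells with all other filtered barcodes. Tests were kept to genotypes, and to 12 other genes against 2 named populations.

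The study profiled dissociated whole lung of old mice by droplet single-cell RNA sequencing (10x Genomics). Its title asks whether mTert, the mouse telomerase reverse transcriptase, placed in p21-positive cells acts on capillary loss and emphysema. There were 4 genotypes in 11 libraries: wild type (+/+, WT, 1 library), p21 heterozygotes (+/-, p21Het, 3 libraries), p21 mTert (+/mTert, p21mTert, 5 libraries) and p21 mTertCD (+/mTertCD, p21mTertCD, 2 libraries). The gene called p21 is Cdkn1a, all 3 altered genotypes keep 1 wild-type allele of it by their labels, and the labels do not spell out CD. No treatment is given. Mice were 18 months old by the age label, except the first p21Het mouse at 19 and the first p21mTert mouse at 20, whose titles both say 18. WT_1, p21Het_1 and p21mTert_1 have titles without a replicate number, and a median mitochondrial share of 6.32% to 6.59% outside the gate, against 2.82% to 4.29% in the other 8 libraries. The labels do not say how many mice a library holds, so p-values measure the spread between libraries. Libraries held 42038434 to 85988955 UMIs.

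Basophils and mast cells are rare granulocytes that carry the high-affinity receptor for IgE, FcεRI, whose alpha chain is Fcer1a and whose beta chain is Ms4a2. Cross-linking of IgE on that receptor releases histamine and lipid mediators and induces cytokines such as interleukin 4 and interleukin 13. Basophils circulate and express the protease Mcpt8, while mast cells live in tissue, depend on the receptor Kit and store chymases and tryptases. Both lineages need the transcription factor Gata2, which binds GATA motifs.

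The upstream sequences of the 3 genes that chose the cells are shown because these genes define the population. Each is the 250 bases before the annotated start, 5′ to 3′ on the gene's strand, from RefSeq (GRCm38.p6), and capitals mark AGATAA or TGATAA on either strand (TTATCT and TTATCA on the reverse).
Ms4a2, minus strand of chr19:11623720-11623969: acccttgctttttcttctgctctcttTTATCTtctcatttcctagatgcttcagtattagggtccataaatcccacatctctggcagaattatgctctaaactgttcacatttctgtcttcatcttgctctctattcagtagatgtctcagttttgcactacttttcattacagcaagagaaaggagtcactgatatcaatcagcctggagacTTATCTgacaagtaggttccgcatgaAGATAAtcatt
Cpa3, minus strand of chr3:20242182-20242431: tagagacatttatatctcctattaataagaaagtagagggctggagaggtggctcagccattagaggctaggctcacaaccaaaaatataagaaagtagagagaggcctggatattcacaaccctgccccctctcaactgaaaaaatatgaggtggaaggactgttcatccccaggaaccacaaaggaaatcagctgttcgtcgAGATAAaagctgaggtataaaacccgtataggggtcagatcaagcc
Mcpt8, minus strand of chr14:56085198-56085447: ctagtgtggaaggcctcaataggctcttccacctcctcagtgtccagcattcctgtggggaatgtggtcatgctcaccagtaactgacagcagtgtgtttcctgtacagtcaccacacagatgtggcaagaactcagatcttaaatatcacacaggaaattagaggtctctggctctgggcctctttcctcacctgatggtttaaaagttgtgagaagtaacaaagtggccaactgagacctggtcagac
Ms4a2 held 3 matches, Cpa3 1 and Mcpt8 0. Of all 32851 promoters in the same table, 5452 (16.6%) held at least 1 match in the same window. A match is a description of these letters and no evidence of binding.

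The values near the threshold describe the choice itself. Among barcodes without Cd3e or Cd79a, 37879 held 0 UMIs of the 3 genes, 39 held 1, 7 held 2, 14 held 3, 19 held 4, 58 held 5 to 9 and 129 held 10 or more. Cyp11a1, a gene the rule did not use, was in 11 of the 39 barcodes with 1 UMI, in all 7 with 2 UMIs just outside the threshold and in 12 of 14 just inside it. A further 25 barcodes reached 3 UMIs but held Cd3e (11) or Cd79a (16, 2 of them with both), and 3 failed the UMI or mitochondrial limits. Ms4a2 was detected in 204 of the 220 cells, Mcpt8 in 178, Cpa3 in 177 and all 3 in 134. Only 3 of the 220 held no UMI of Fcer1a, Cd200r3 or Cyp11a1. The median gated cell had 5502.5 UMIs, 1499.5 genes and 2.27% mitochondrial UMIs, against 5257.0 UMIs and 4.26% in all other filtered barcodes. No cell barcode was shared between libraries among the 220, and 1238 filtered barcodes in all were.

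Some libraries need a note before the results. p21mTert_3 held 0 of these cells among 6311 filtered barcodes, which allows a share of up to 0.0475% by the limit of 3 counts of the total (the exact 2-sided 95% interval reaches 0.0584%), and 1 UMI of the 3 genes in all of its filtered barcodes. It therefore enters no expression comparison. p21mTert_2 alone held 66 of the 220 cells. In p21mTertCD_1, 8 of 10 gated cells were among the barcodes with the highest doublet scores, against 5.25% of all its filtered barcodes, and in all libraries 20 of 220 were. In 15 gated cells, over 1% of UMIs came from a marker list of 1 other cell type (7 of them in p21mTert_2 and 3 in p21mTert_1). The summed level of 6 epithelial markers reached 35482.8 CPM (UMIs of a gene per 1000000 UMIs) in the gated cells of p21mTert_1 and 26624.6 CPM in p21mTert_4, and lay between 997 and 3647.5 CPM in the other 8 libraries with gated cells. These 2 levels rested on 1 cell each, with 4532 and 4477 of the epithelial UMIs, and were 2156.5 and 2260.0 CPM without it. The gated cells of p21mTert_1 also had the highest sums of dendritic cell markers (6346.8 CPM, 710 without 1 cell) and of neutrophil markers (2390.3 CPM, 275 without 1 cell). All barcodes were kept. Without the highest doublet scores, the share of gated cells in p21mTertCD_1 was 0.0322%.

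**Figure D1:**
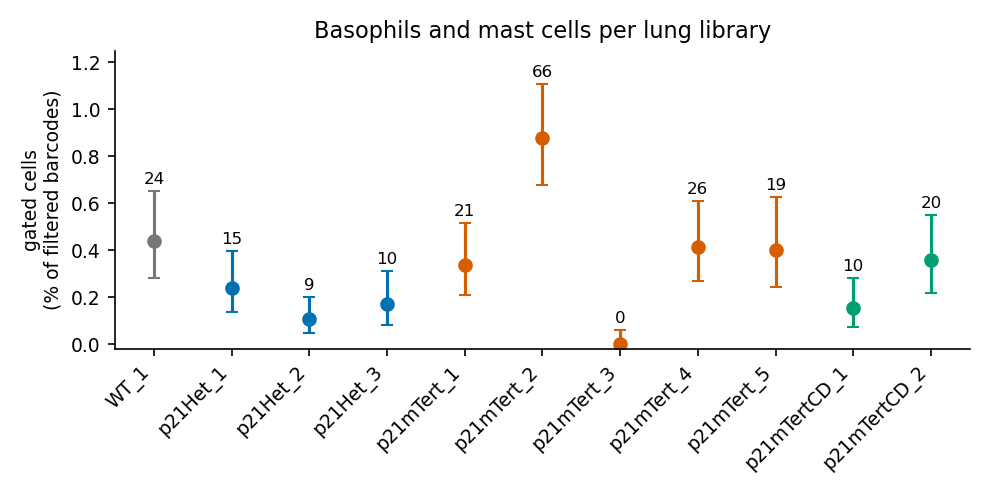
Gated cells as a percent of filtered barcodes (y axis) in each of the 11 libraries, coloured by genotype. Points are single libraries, bars are exact 95% binomial intervals and the numbers above them are cells. The p21mTert libraries span from 0 cells to 66 cells and overlap every other genotype.

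Which genotypes held more of these cells was asked first. They made up 0.439% of filtered barcodes in WT_1. In p21Het the values were 0.241%, 0.106% and 0.171%, and in p21mTertCD 0.152% and 0.357%. In p21mTert they were 0.338%, 0.877%, 0%, 0.415% and 0.402%. The plot of shares by library shows that p21mTert held both the highest and the lowest library, so it overlapped both other replicated groups. Exact 95% Clopper-Pearson intervals, which cover counting error only, ran from 0.679% to 1.11% in p21mTert_2 and from 0.0483% to 0.2% in p21Het_2.

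The p21mTert libraries had a mean share of 0.406% ± 0.313 (SD, n = 5). Heterozygotes had 0.172% ± 0.0679 (SD, n = 3), and mTertCD mice had 0.255% ± 0.145 (SD, n = 2). The 2-sided exact permutation test gave p = 0.286 for p21mTert minus p21Het (0.234 percentage points), where the smallest possible p is 0.0179. The same exact permutation test gave p = 0.571 for p21mTert minus p21mTertCD (0.152 points, smallest possible 0.0476). For p21mTertCD minus p21Het the exact permutation test gave p = 0.5 (0.0824 points, smallest possible 0.1). All 3 adjusted values were 0.571 by Benjamini-Hochberg over 3 exact permutation tests. With so few libraries, none of the 3 contrasts could reach an adjusted p under 0.05, even at its smallest possible p. The adjusted values therefore cannot decide whether the share differs between genotypes. Each difference was smaller than the larger of the SDs of its groups. Without p21mTert_3 the first difference was 0.336 points (exact permutation p = 0.0571), and without p21mTert_2 it was 0.116 points (exact permutation p = 0.4).

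Within the gate, most cells had the protease pattern of basophils. By the marker rule, 174 cells were basophil-like (at least 1 Mcpt8 UMI and fewer than 3 UMIs summed over the mast cell proteases Mcpt4, Cma1, Tpsb2 and Tpsab1), 9 were mast cell-like (3 or more UMIs of those proteases) and 37 stayed unnamed. The split used these proteases, so their difference is no finding. None of the 174 basophil-like cells held a single UMI of the mast cell proteases, and in the other cells below the threshold only 1 did. The mast cell-like cells came from p21mTert_2, p21mTert_4, p21mTert_5 and p21mTertCD_1 with 2 each and p21Het_3 with 1. A class of 9 cells in 5 libraries allows no comparison of genotypes.

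**Figure D2:**
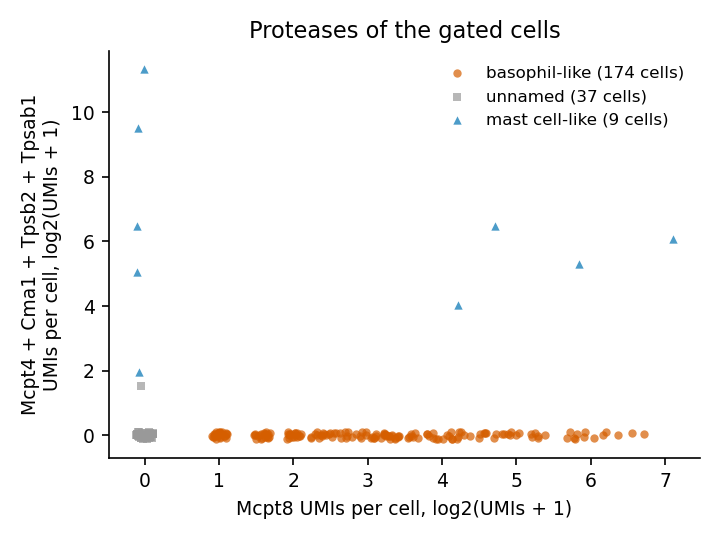
Each point is 1 of the 220 gated cells, with Mcpt8 UMIs on the x axis and the summed UMIs of 4 mast cell proteases on the y axis, both as log2(UMIs + 1) with a small random shift so that equal values can be seen. The 174 basophil-like cells lie along the bottom at 0 mast cell protease UMIs, and 4 of the 9 mast cell-like cells also hold Mcpt8.

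The mast cell-like cells shared features the rule did not use. All 9 held Kit, the receptor for stem cell factor (4 to 54 UMIs per cell), and all 9 held Il1rl1, the receptor for interleukin 33 (3 to 29 UMIs). In basophil-like cells Kit was detected in 4 of 174 cells and Il1rl1 in 58. The 9 cells were not alike. Tph1, the enzyme of serotonin synthesis, was found in 5, Mrgprb1 in 3 and Mrgprb2, a receptor for cationic secretagogues, in 2. Of the 10 mast cell markers, 2 cells held all 10, both in p21mTert libraries, and 1 cell of p21mTertCD_1 held only 2, Kit and Cma1. The 4 cells with Mcpt8 (18 to 138 UMIs) had Cma1 but no Mcpt4, Tpsb2 or Tpsab1, while 4 of the 5 without Mcpt8 had Tpsb2. Those 4 cells with Mcpt8, and the cell with only Kit and Cma1, thus entered the class on Cma1 alone. Outside the gate Cma1 stood at 1.81 to 7.8 CPM over the 11 libraries. Of the 4, the p21mTert_2 cell (25261 UMIs) was among the highest doublet scores. The median depth of the 9 cells was 11998.0 UMIs against 5583.5 in basophil-like cells, so detection is not on an equal footing.

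Chemokines separated the classes too. Ccl3 and Ccl4, chemokines that attract leukocytes, stood at 16032.0 and 33803.1 CPM in basophil-like cells and at 1571.8 and 3655.6 CPM in mast cell-like cells. A single mast cell-like cell of p21mTertCD_1, which also held 138 Mcpt8 UMIs, had 151 of the 175 Ccl3 UMIs of its class, and the median mast cell-like cell had 0 Ccl3 and 3 Ccl4 UMIs, against 81 and 190 in basophil-like cells. Ccl2, which attracts monocytes, stood at 3574.7 CPM in mast cell-like cells (5 of 9 cells, 1 of them with 247 of the 398 UMIs; the median cell had 3) and 1.81 CPM in basophil-like cells. Ccl7 was found in 2 mast cell-like cells and in none of the 174. Cells, not libraries, were pooled here, and no test was made. The 37 unnamed cells had no Mcpt8 by construction, and their levels against those of basophil-like cells were 421 against 605 CPM for Cd200r3, 1159.7 against 1685.6 CPM for Cyp11a1, 2141.3 against 3392.1 CPM for Il6 and 27694.2 against 33803.1 CPM for Ccl4. They were further apart for Prss34 (8.69 against 178 CPM, found in only 32 of 174 basophil-like cells) and Il4 (387 against 925 CPM). The classes draw on the libraries unequally: p21mTert_2, where Il4 stood at 1099.7 CPM, gave 61 of the 174 basophil-like and 3 of the 37 unnamed cells. Gaps in Kit (113 against 31.7 CPM) and Gzmb (682 against 348 CPM) rest on few cells: Kit was in 4 of 37 unnamed cells, and 1 unnamed cell held 87 of the 157 Gzmb UMIs.

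The identity genes of basophils were checked next. Of the 12 on the list, 11 were detected in gated cells, 11 stood above all other filtered barcodes in pooled CPM, and Ptgdr2 (the prostaglandin D2 receptor) had 0 UMIs. Gata2 reached 3588.3 CPM against 28.2 in all other cells. The alpha chain Fcer1a stood at 540 CPM against 0.322, and Cd200r3, an activating receptor of basophils, at 532 against 0.464. Cyp11a1, the mitochondrial enzyme that turns cholesterol into pregnenolone, the first step of steroid synthesis, stood at 1524.5 CPM against 0.956. It was found in 213 of 220 cells, in every one of the 10 libraries with gated cells (633 to 2096.9 CPM), and in more cells than either Fcer1a (194) or Cd200r3 (178). The gated cells held 81.2% of all Cyp11a1 UMIs of the filtered lung. Prss34, a basophil protease, was patchier: 34 cells held 201 UMIs, 99% of those in the lung, and p21mTertCD_1 had none. All 220 cells were pooled here, and mast cell-like cells held several of these genes too. Fcer1a stood at 970 CPM in mast cell-like and 530 CPM in basophil-like cells, Gata2 at 2613.7 and 3736.7, Cyp11a1 at 683 and 1685.6. Cd200r3 (44.9 and 605 CPM) and Prss34 (26.9 and 178 CPM) were further apart.

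The signalling arm of the IgE receptor was less distinctive. Of 14 members of that list, 7, among them the gate gene Ms4a2, stood above the other cells in pooled CPM. The shared gamma chain Fcer1g was at 1545.3 against 595 CPM and the adaptor Lat2 at 371 against 32.1 CPM. The kinases Lyn (126 against 207 CPM) and Syk (67.2 against 156 CPM) were lower than in the rest of the lung, which holds many other leukocytes.

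Of mediator genes, Hdc, the enzyme that makes histamine, was at 5204.8 CPM and in 217 of 220 cells. It ranged only from 3625.3 to 5853.0 CPM over the 10 libraries. The vesicular transporter Slc18a2, which loads histamine into granules, was at 334 CPM and in 123 cells. Alox5ap (1303.6 CPM) and Alox5 (184 CPM), which start leukotriene synthesis, were present, and Ltc4s, which makes leukotriene C4, had 1 UMI in all 220 cells. Ptgs2, the inducible cyclooxygenase, was at 1268.3 CPM and spread from 483 to 2630.1 CPM over libraries. The lowest Ptgs2 value was in p21Het_1 and the highest in p21mTertCD_2.

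Pooled over libraries, most Il6 and Il4 UMIs of the filtered lung lay in these few cells, though not in every library. Il6, a cytokine of the acute phase, had 4257 UMIs in the 220 gated cells and 1955 in all other filtered barcodes, so that 68.5% of all Il6 UMIs lay in 0.318% of the barcodes. By library this share ran from 46.3% in p21mTertCD_1 to 84.9% in p21mTert_5, and was 47.2%, 47.1% and 47.8% in p21Het. The same share was 62.1% for Il4 (37.9% to 79.2%), 47.6% for Il13 (6.9% to 76.6%), 44.1% for Ccl3 (13.2% to 75.3%) and 44% for Ccl4 (22.1% to 67.3%), each over the 10 libraries with gated cells. For Csf1, the growth factor of macrophages, it was 25.1%, for Hgf, which acts on epithelium and endothelium, 19.2%, and for Osm, a cytokine of the interleukin 6 family, 13.8%. The plot of UMI shares shows the libraries behind these pooled values. In p21mTert_3, which had no gated cell, the level over all filtered barcodes was the lowest of the 11 libraries for Il6 (3.43 CPM against 4.31 to 31), Ccl3 (29 CPM against 47.8 to 160) and Cyp11a1 (0.282 CPM against 1.06 to 13.3). Il4 stood at 1.69 CPM there, within the range of 0.93 to 11.6 CPM of the others. With gated cells left out of every library, p21mTert_3 was still the lowest for Ccl3 (29 CPM against 29.7 to 84.6). The same held for Cyp11a1 (0.282 CPM against 0.368 to 2.49). For Il6 (3.43 CPM) it then lay within the 1.71 to 5.48 CPM of the others.

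**Figure D3:**
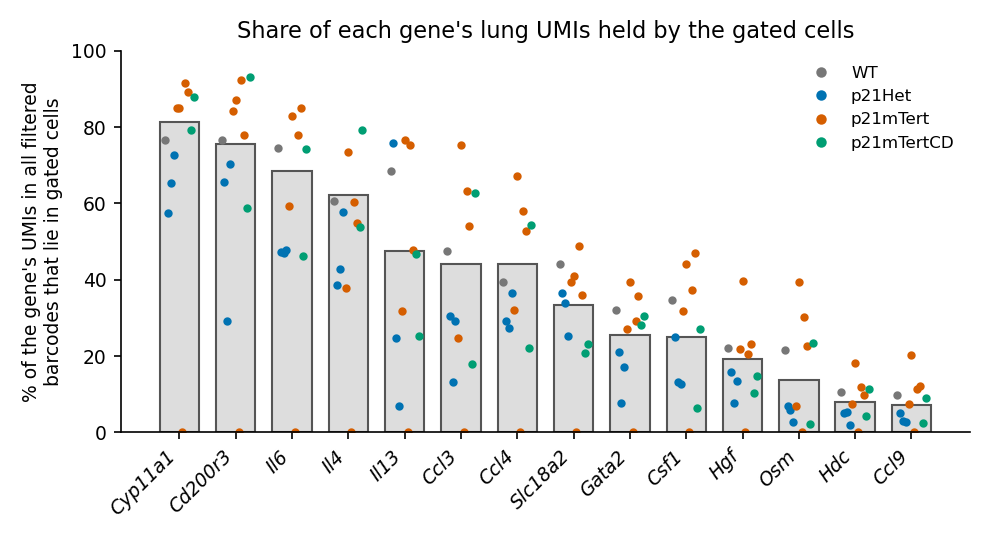
For each gene, the percent of its UMIs over all filtered barcodes that lie in gated cells. Bars pool 11 libraries and points are single libraries coloured by genotype, with p21mTert_3 at 0. The pooled bars go from 81.2% for Cyp11a1 to 7.14% for Ccl9.

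The levels within the cells were high and broad. Ccl3 and Ccl4 together made up a median of 4.85% of a gated cell's UMIs, with quartiles of 2.83% and 7.21% and a highest value of 18.3%. Il6 stood at 3360.0 CPM in WT_1, at 3062.3, 2264.2 and 2436.2 in p21Het, at 2115.6, 3294.5, 3629.9 and 2484.0 in p21mTert replicates 1, 2, 4 and 5, and at 1506.6 and 3306.4 in p21mTertCD. The genotypes overlapped. Il4 stood at 419 CPM in WT_1, at 453, 364 and 379 in p21Het, at 267, 1099.7, 497 and 633 in p21mTert, and at 555 and 2070.7 in p21mTertCD. The p21Het values lay close together, but rest on 30, 27 and 30 UMIs, of which 1 cell each held 17, 23 and 17. The highest values were in p21mTert_2 and p21mTertCD_2, and p21mTert_1 lay below every p21Het library. Of the other type 2 and growth factor genes, 4 were at or near 0: Il5 and Il3 had 0 UMIs, Areg 1 and Csf2 2 in all 220 cells. Il3 had 0 UMIs in all other filtered barcodes too, so its 0 does not set the gated cells apart.

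Detection was also compared at equal depth, with each cell thinned to 1000 UMIs. Il6 was then found in 81.4% of gated cells, Il4 in 31.8%, Il13 in 21.8%, Ccl3 in 92.3% and Ccl4 in 95.5%. Without thinning the shares were 93.2%, 64.5%, 42.7%, 95.9% and 96.4%. In 3108 erythroid comparison cells, which should lack these genes (100 or more UMIs of 2 globin genes, median 3806.0 UMIs), the thinned shares were 0.0322% for each of Il6, Il4 and Il13, 0.611% for Ccl3 and 0.965% for Ccl4. Thinning is a random draw, and 0.0322% stands for 1 cell, so the lowest shares can shift with the draw. As a measure of free RNA, Sftpc, made by alveolar epithelium, had at least 1 UMI in 91.8% of gated cells, and after thinning in 38.6% of them and in 54.6% of erythroid cells.

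Il4 and Il13 were not always found in the same cells. Of the 142 cells with Il4, 71 (50%) also held Il13, and of the 78 without Il4, 23 (29.5%) did. The median depth of these groups was 5582.0 and 5301.0 UMIs. Il6 was about as frequent with Il4 as without it (94.4% and 91%). These are counts of cells, with no test.

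Receptors for the cytokines that drive the lineage were present at low to moderate levels. The beta chain shared by the interleukin 3, interleukin 5 and GM-CSF receptors, Csf2rb, was at 1178.3 CPM, and Csf2rb2, specific to interleukin 3 in the mouse, at 409 CPM. Il3ra, their ligand-binding partner, was at 67.2 CPM. Il18rap was at 336, Il1rl1 at 190 and Crlf2, of the receptor for TSLP, at 123 CPM. Of 16 members of this list, 10 stood above the other cells. In chemoattractant receptors, Cxcr4 was at 627, Ccr1 at 375, C5ar1 at 350 and Ccr3 at 25.6 CPM. Markers of eosinophils, which share many of these receptors, were at 48.5 CPM in sum against 31.1 CPM in the other cells. Of the 6 markers, Epx, Ear6 and Il5ra had 0 UMIs, and 2, Ccr3 and Siglecf, stood above the other cells. No cell cycle gene of 12 reached 50 CPM, and the list summed to 67.8 CPM against 176 CPM in the other cells.

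Immediate early and stress genes, which respond within minutes to stimulation and also to tissue dissociation, summed to 34350.0 CPM against 8736.1 CPM in the other cells. WT_1 was highest at 57053.9 CPM, and the other libraries ran from 25256.1 to 38950.7 CPM. Of the 18 genes, 13 stood above the other cells in pooled CPM. Ier3 stood at 3821.6 against 159 CPM and the NF-κB inhibitor Nfkbia at 6498.1 against 477 CPM. Fos went both ways, for example 2078.4 against 1369.7 CPM in WT_1 and 332 against 1286.8 CPM in p21Het_1. The heat shock genes Hspa1a (12.5 against 29.7 CPM) and Hspa1b (3 UMIs) were not among the high ones. The part of the dissociation in the cytokine and chemokine levels was not tested.

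By the ratio of pooled CPM (pseudocount 1) among genes in at least 25% of the cells, the 20 leading genes outside the gate began with Cyp11a1 (780), Il6 (633), Fcer1a (409), Cd200r3 (364), Il4 (343), Ccl4 (288), Ccl3 (286), Il13 (155), Gata2 (123) and Csf1 (120). They went on with Slc18a2, Csrp3, Hgf, Gm20186, Osm, Gm12840, Gm26809, Alox15, Cks2 and Acod1. Csrp3, known as a muscle LIM protein, was in 122 cells at 180 CPM against 0.672. Alox15, a lipoxygenase of eosinophils and macrophages, was in 123 cells at 154 CPM against 2.37. The cells were chosen by genes of the same contrast, so these ratios carry no test. p21mTert_2 gives 66 of the 220 cells, and by library the ratios ran widely, for example from 106 to 898 for Il4, 92.2 to 676 for Ccl3 and 24.6 to 350 for Il13, so the order given is that of the pooled cells. The genes most like the gate genes, by the share of their lung UMIs in gated cells among genes with at least 20 UMIs there, were Tpsab1 (100%), Tpsb2 (99.3%), Prss34 (99%), Mrgprb1 (95.9%), Mcpt4 (89%), Gm35147 (87.5%), Mcpt2 (87.3%), Fcer1a (81.9%), Tph1 (81.9%) and Cyp11a1 (81.2%). Of these, Tpsab1, Tpsb2, Mrgprb1, Mcpt4, Mcpt2 and Tph1 were each found in at most 5 cells, while Gm35147, an unnamed transcript, was in 42.

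To show where these cells differ from other lung cells, 12 listed genes were compared within libraries with 2 other populations. The first comprised 406 cells with Gata3 and at least 3 UMIs of Gata3 and Rora, without UMIs of Cd3e, Cd3d, Cd3g, Trac, Cd79a, Nkg7 or the gate genes. This rule was meant for group 2 innate lymphoid cells, but 34.7% held the endothelial gene Cdh5 (5% of gated cells). Ptprc, the pan-leukocyte gene, was in 61.8% of them and in 75.5% of gated cells. They are therefore called Gata3 and Rora cells here. The second comprised 5715 neutrophil-like cells (20 or more UMIs of S100a8 and S100a9, and Csf3r), of which 99.2% held Ptprc. The test was a 2-sided exact sign-flip permutation test over the 10 libraries with gated cells, on log2(CPM + 10), whose smallest p is 0.00195, with Benjamini-Hochberg adjustment over 24 tests. The pseudocount makes the folds of low genes too small. Both populations were chosen to lack the gate genes, so a gene that goes with those, such as Fcer1a, is not independent of the choice.

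Against Gata3 and Rora cells, 11 of the 12 genes differed, 10 higher and 1 lower. Only these 12 chosen genes were tested, so no share over all genes stands beside the count. It describes these genes alone. Il6 ranged from 1506.6 to 3629.9 CPM in gated cells and from 0 to 46.5 CPM in Gata3 and Rora cells, a log2 difference of 7.33 ± 0.94 (SD), higher in 10 of 10 libraries (exact permutation, adjusted p = 0.00234). Il4 differed by 4.99 ± 1.09 and Csf1 by 5.70 ± 0.73, with the same p and the same direction in 10 of 10. Hdc differed by 7.28 ± 0.62. Areg, amphiregulin, a repair factor made by innate lymphoid cells, was lower in gated cells in 10 of 10 libraries, by a log2 difference of -2.92 ± 1.22 (exact permutation, adjusted p = 0.00234). Il1rl1 did not differ beyond the spread (-0.27 ± 1.12, exact permutation, adjusted p = 0.455). Il13 was higher in 9 of 10 libraries (2.41 ± 2.25, exact permutation, adjusted p = 0.0128). With the comparison limited to the 227 cells with Ptprc and no Cdh5, Il13 no longer passed (1.77 ± 2.65, exact permutation, adjusted p = 0.0703) and Il1rl1 was lower in gated cells (-1.26 ± 1.26, exact permutation, adjusted p = 0.0213). The other 10 genes kept their direction and passed.

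Against neutrophil-like cells all 12 genes differed, 11 of them higher in gated cells in 10 of 10 libraries. Here too only the 12 chosen genes were tested, and the count has no share over all genes beside it. Hdc, which neutrophils also transcribe, was at 3625.3 to 5853.0 CPM in gated cells and 1254.1 to 2386.0 CPM in neutrophil-like cells, a log2 difference of 1.36 ± 0.25 with no overlap of the ranges (exact permutation, adjusted p = 0.00234). Alox5 differed by 1.11 ± 0.51 and Csf2rb by 1.74 ± 0.40, the smallest differences beside Hdc among the genes that were higher. Il4 had 0 UMIs in all 5715 neutrophil-like cells, and Il13 and Fcer1a had 1 each, so for these 3 genes the test compares with a level of about 0. Areg was lower by -0.44 ± 0.61, just past the threshold (exact permutation, adjusted p = 0.0489), on 1 UMI against 104.

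**Figure D4:**
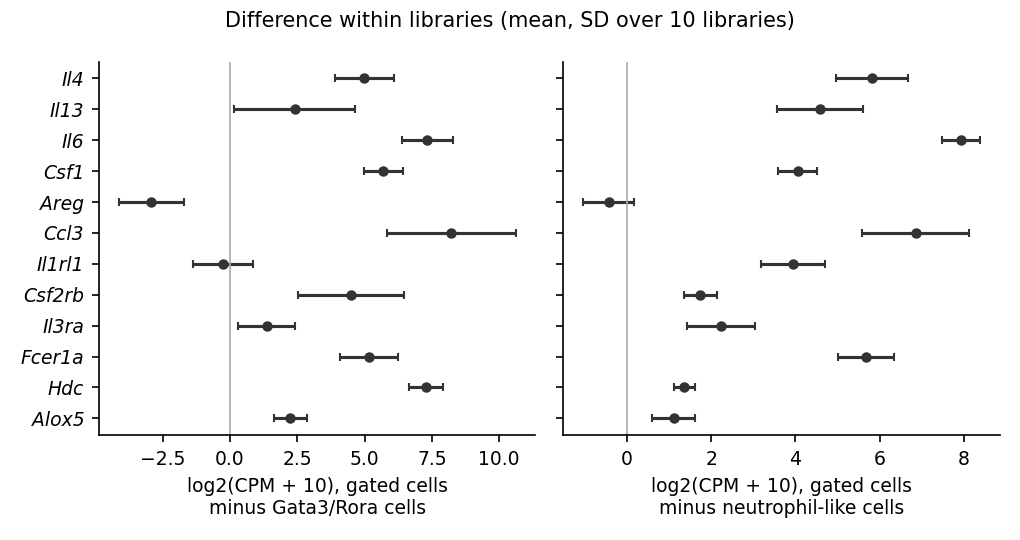
Difference in log2(CPM + 10) between gated cells and Gata3 and Rora cells (left) or neutrophil-like cells (right) of the same library, for 12 genes. Points are means over 10 libraries and bars are 1 SD. Il6 lies furthest right against neutrophil-like cells, and Il1rl1 straddles 0 against Gata3 and Rora cells.

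The genotypes were then compared gene by gene, on UMIs summed over the gated cells of each library. The fit took the 8 replicated libraries with at least 10 gated cells: p21Het_1 and p21Het_3, p21mTert_1, p21mTert_2, p21mTert_4 and p21mTert_5, and both p21mTertCD libraries, with 66289 to 446504 summed UMIs each. In bulk sums such as these, fewer expressing cells and less RNA per cell cannot be told apart. By edgeR's quasi-likelihood test, 0 of 2068 genes (0%) had an adjusted p under 0.05 in each of the 3 contrasts. At an unadjusted p under 0.05 there were 102 genes for p21mTert against p21Het, 97 for p21mTert against p21mTertCD and 98 for p21mTertCD against p21Het (4.93%, 4.69% and 4.74% of those tested). DESeq2 called 2, 0 and 0 in that order. On simulated data for the first contrast, the edgeR test recovered 146 of 200 genes changed 4-fold, with 5 false calls among 1845 genes. It recovered 145 (6 false calls) for p21mTert minus p21mTertCD and 112 (7 false calls) for p21mTertCD minus p21Het. The simulation gave all genes the same fixed spread between libraries, which was not estimated from these sums. It therefore cannot say how many 4-fold changes the test would find in these cells.

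Cdkn1a, the gene of the engineered locus (chr17:29090976-29100727, plus strand, GRCm38), encodes a cyclin-dependent kinase inhibitor and had the smallest p in the first contrast. It stood at 649, 526 and 644 CPM in p21Het replicates 1, 2 and 3, at 81.7, 159, 144 and 131 CPM in p21mTert replicates 1, 2, 4 and 5, at 344 and 125 CPM in p21mTertCD and at 115 CPM in WT_1. All 3 p21Het libraries lay above every other library, including the p21Het library of 9 cells that was left out of the fit. The log2 fold change of p21mTert against p21Het was -2.14 with a standard error of 0.39, and it was not called by edgeR (adjusted p = 0.614). DESeq2 called it (adjusted p = 0.0194), and over the alternative fits across all genes the adjusted p ran from 3.05e-05 (edgeR without a filter on low counts) to 0.997 (edgeR without p21mTert_4). A 2-sided exact permutation test over 4 and 3 libraries, without adjustment and added after the values were seen, gave p = 0.0286, the smallest that design allows. Among the 2068 genes tested, 144 (6.96%) had library values in p21mTert and p21Het that did not overlap.

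The same UMIs can be read as counts of cells, which is no independent support for the difference. The p21Het levels rest on 43, 39 and 51 UMIs, of which 1 cell each held 8, 9 and 18. In p21mTertCD_1, 1 cell held 12 of 26. At least 1 Cdkn1a UMI was found in 9 of 15, 9 of 9 and 9 of 10 gated cells of p21Het, and in 7 of 21, 23 of 66, 8 of 26 and 7 of 19 of p21mTert. It was found in 7 of 10 and 6 of 20 of p21mTertCD and in 9 of 24 of WT_1. Thinned to 1000 UMIs per cell, the shares were 40%, 44.4% and 60% in p21Het against 9.52% to 16.7% in p21mTert, with 0% to 2.93% in erythroid comparison cells of the libraries that held gated cells. Median depth overlapped, at 4536.0 to 6589.0 UMIs in p21Het and 4558.0 to 6732.0 in p21mTert. Among libraries with unnumbered titles the levels were 649 CPM in p21Het and 81.7 CPM in p21mTert, and among numbered titles 526 and 644 against 131 to 159 CPM. Without mast cell-like and mixed cells the levels were 547 to 654 CPM in p21Het and 69 to 165 CPM in p21mTert. In all other filtered cells Cdkn1a stood at 135 to 186 CPM in p21Het and 124 to 160 CPM in the same p21mTert libraries, ranges that overlapped.

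**Figure D5:**
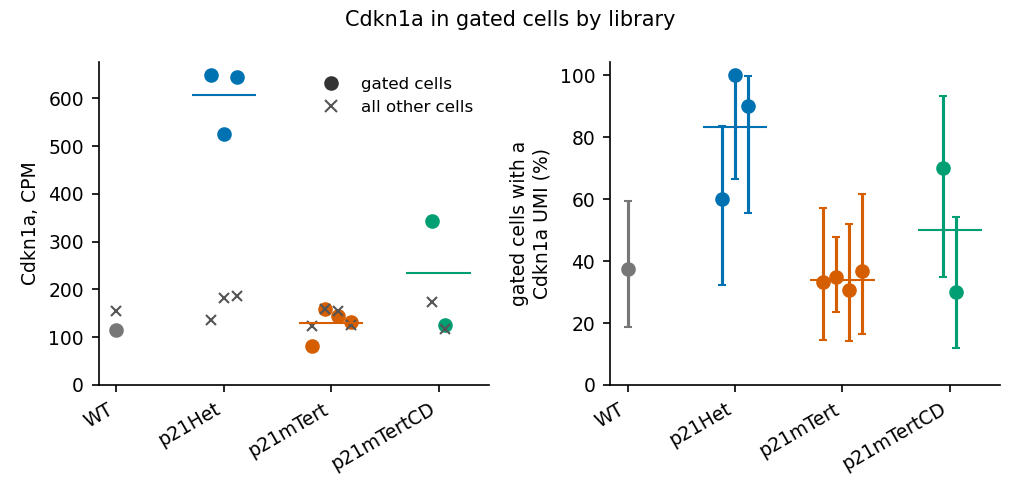
Cdkn1a by genotype in the 10 libraries with gated cells. Left, CPM in gated cells (filled points) and in all other filtered cells (crosses); right, the percent of gated cells with at least 1 Cdkn1a UMI, with exact 95% intervals. Horizontal lines are group means. The 3 p21Het libraries lie at 526 to 649 CPM, above the 7 others.

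For p21mTertCD minus p21Het the log2 fold change of Cdkn1a was -1.35 with a standard error of 0.49 (edgeR, adjusted p = 0.877), and for p21mTert minus p21mTertCD it was -0.80 (edgeR, adjusted p = 0.953). The first of these ran from -2.71 with a gate of 5 UMIs to -0.76 without p21mTertCD_2, and was -2.17 without p21mTertCD_1. The last value rests on p21mTertCD_1 and was 0.05 without it, with p21mTertCD_2 as the only library of that group. Tert itself had 2 UMIs in the 220 cells, 1 in p21Het_2 and 1 in p21mTert_2, so its level cannot be compared at this depth.

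The other genes of smallest p, none of them called by edgeR, were these. For p21mTert minus p21Het, Plac8, a small cysteine-rich protein, stood at 2157.2, 1927.2 and 1691.4 CPM in p21Het and at 542, 611, 635 and 826 CPM in p21mTert, without overlap. Its log2 fold change was -1.42 with a standard error of 0.29 (edgeR, adjusted p = 0.614; DESeq2, adjusted p = 0.0194). Lfng, a glycosyltransferase that modifies Notch, stood at 302, 148 and 227 CPM against 29.7 to 88.4 CPM. Zfp36l1, an mRNA decay factor, stood at 121 to 216 CPM against 215 to 489 CPM. S100a4 was at 783 CPM in p21Het_3 and at 0 and 27 CPM in the other p21Het libraries, so 1 library sets its value (-4.80 on the log2 scale), and without p21Het_3 the fit has no S100a4 UMI in p21Het to compare with. For both contrasts with p21mTertCD, Plin2, which coats lipid droplets, came first: 13.2 and 16.7 CPM in p21mTertCD (3 UMIs in all), 69.4 to 104 CPM in p21mTert and 67.4 to 164 CPM in p21Het (edgeR, adjusted p = 0.953 and 0.394). Against p21mTert, Gimap5, Tsc22d2 and Zc3h13 were also among them, and against p21Het, H2-Q7, Ndufb3, Gzmb and Cox6c were. Gzmb, granzyme B, stood at 2986.7 and 868 CPM in p21mTertCD and 37.9 to 256 CPM in p21Het, and all 226 UMIs in p21mTertCD_1 came from 2 cells.

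The gene lists of the pathway showed 0 called members in any contrast, read against the same 0% of all genes tested. For p21mTert minus p21Het, the median log2 fold change was -0.12 over 10 basophil identity genes, -0.25 over 7 histamine and eicosanoid genes, 0.22 over 9 cytokines and growth factors, 0.35 over 7 chemokines and -0.21 over 11 cytokine receptors, against 0.01 over all 2068 genes. Of 16 immediate early and stress genes, 14 had a positive log2 fold change (median 0.18), 2 of them with an unadjusted p under 0.05, against 4.93% of all genes tested. In the same contrast, all 5 epithelial markers tested had a positive log2 fold change (median 3.87), 3 of them with an unadjusted p under 0.05. In p21mTert_1 and p21mTert_4, 1 cell each held 4532 of 4780 and 4477 of 4819 epithelial UMIs. Without that cell the summed levels were 2156.5 and 2260.0 CPM, within the 997 to 2986.9 CPM of p21Het with all cells kept. With all cells kept, p21mTert_2 (3625.9 CPM) and p21mTert_5 (3110.1 CPM) stood above that range. Without their highest cell they were at 3137.1 and 2463.1 CPM. The part of epithelial RNA in other values was not tested. Of the immediate early genes, Fos stood at 332, 606 and 442 CPM in p21Het and 867 to 1365.9 CPM in p21mTert (edgeR, adjusted p = 0.875). It stood at 225 and 1219.0 CPM in p21mTertCD and at 2078.4 CPM in WT_1. Single cells held 30 of 45 Fos UMIs in p21Het_2, 18 of 35 in p21Het_3 and 92 of 244 in p21mTert_4. Jun overlapped, at 1439.0 to 3032.2 CPM in p21Het and 1522.9 to 3563.6 CPM in p21mTert. The lists of mast cell genes get no median, because several of their genes had 0 UMIs in some of the libraries compared.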

How the data were processed

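The files hold raw UMI counts per gene and barcode (31053 genes), as the authors deposited them. Per the submitters' processing notes, Cell Ranger and mm10 were used. The filters on barcodes are those of the series' design text, applied here because the deposited counts hold barcodes outside them. That text says that samples were sequenced at different times, without saying which. Members and gene lists were chosen with earlier results of these data known. Named genes were the list members of at least 50 CPM, Cdkn1a and Tert, the 20 leading and 10 most confined genes, and the 5 of smallest p per contrast. Doublets were scored with Scrublet in scanpy 1.11.5, the top 0.8% per 1000 barcodes were marked (its own thresholds marked 0% to 3.59%), and they stayed in except in alternatives. Sums over gated cells were tested with edgeR 4.0.16 (R 4.3.3; filterByExpr, TMM, quasi-likelihood, Benjamini-Hochberg), with DESeq2 1.42.0 as an alternative. WT (1 library) entered no test of genotypes. Thinning drew 1000 UMIs per cell. Gene starts come from RefSeq. Gate genes were described only, and a few genes that meet the naming rule are not reported here. The edgeR test was tested on simulated data.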

Additional observations from a re-analysis of the deposited data

Results flagged for a closer look

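In the 4 p21mTert libraries with gated cells, 107 values were examined (the share over all 5 libraries, and genes) for a library far from the others. Such a library was found for 14 genes, and not for the share. The threshold flags about 1 in 20 values from a normal distribution. Many of these CPM rest on few UMIs or include 0, so 14 flags are not read as an excess over chance. Among 4 libraries, a gap of more than 0.829 of the range set a library apart. In p21mTert_5 these were Tpsb2 (5883.1 CPM against 0 to 724), Tpsab1 (550 against 0 to 33.1), Ctsg (200 against 29.7 to 49.3), Syk (110 against 64.9 to 66.8) and Nfkbia (7465.7 against 5292.7 to 5635.4). In p21mTert_4 they were Mcpt2 (564 CPM against 0 to 78.4), Vegfa (177 against 13.8 to 38.1) and Fcgr3 (77.3 against 171 to 181). In p21mTert_1 they were Ccl3 (5968.2 CPM against 14635.5 to 15906.3), Ccl5 (393 against 13.8 to 20.2), Il2rg (74.2 against 138 to 150) and Stat6 (74.2 against 48.2 to 49.7). In p21mTert_2 they were Cxcl2 (1361.7 CPM against 0 to 20.6) and Fyn (73.9 against 122 to 126). The Tpsb2, Tpsab1 and Mcpt2 values rest on at most 2 mast cell-like cells per library. Few UMIs stand behind others: 16 for Syk in p21mTert_5, 14 for Fcgr3 in p21mTert_4, and 10 each for Il2rg and Stat6 in p21mTert_1. In p21mTert_1, 1 cell held 4532 of 4780 epithelial marker UMIs, and without it Ccl3 stood at 6930.4 CPM. Without the cell highest in dendritic cell markers it stood at 6800.1 CPM, and without the one highest in neutrophil markers at 5396.9 CPM.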

How the results depend on the processing

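No alternative gave a difference in the share of gated cells with a p under 0.05, and p21mTertCD minus p21Het has too few libraries to reach one. Leaving out 1 library moved them from 0.116 to 0.336 points for p21mTert minus p21Het, from 0.0339 to 0.254 for p21mTert minus p21mTertCD, and from -0.02 to 0.185 for p21mTertCD minus p21Het, the sign turning without p21mTertCD_2. On the logit scale, p21mTert minus p21mTertCD turned to -0.134. With a replicate block on the numbers 2 and 3, which p21Het and p21mTert share, the first difference was 0.301 points (exact permutation p = 1, 2 pairs). The labels do not say that a number pairs mice, and the gene fit could not take the block, because p21mTert_3 has no gated cell.

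Gene calls for p21mTert minus p21Het were 2 by DESeq2, 2 with numbered titles only, and 0 to 2 when 1 library was left out (2 without p21Het_1). With numbered titles only, or without either p21Het library, p21Het has 1 library, whose spread is taken from the other groups. The same holds for p21Het and p21mTertCD where doublet scores, mast cell-like cells, a gate of 5 UMIs or basophil-like cells limit the cells, and for p21mTertCD without mixed cells, because p21Het_3 or p21mTertCD_1 then falls under 10 cells. Without a filter on low counts they were 100, and 51 and 50 in the contrasts with p21mTertCD in the order given above; the cause was not tested. Cdkn1a kept its sign for p21mTert minus p21Het under all 20 alternatives (-2.31 to -1.84). For p21mTert minus p21mTertCD it turned to 0.87 with a gate of 5 UMIs, ran from -1.37 to 0.05 when 1 library was left out (0.05 without p21mTertCD_1), and was 0.11 in basophil-like cells and 0.09 without mixed cells. Each of these positive values is against p21mTertCD_2 alone. S100a4 turned to 3.61 without the highest doublet scores, and 3.88 without mast cell-like cells, and ran from -6.82 to 3.87 when 1 library was left out (3.87 without p21Het_3). Each of these positive values is against p21Het_1 alone, which has 0 S100a4 UMIs, so it depends on the prior count and shows no direction. Alternatives on mixed cells, basophil-like cells, libraries of 5 or more cells, the exact permutation test, Cd3e and Cd79a limits and the Cdh5 limit were chosen after seeing the data. In the 12-gene comparisons, 11 or 12 genes passed under each alternative, not always the same ones. With 9 to 66 cells per library, genes of a few UMIs per library are beyond this depth.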
